A study of Mus musculus with 3 samples.

Results

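Chemokines and their receptors were followed through the cells of 3 mouse kidney libraries. The members were all genes of the deposited tables whose symbol begins with Ccl, Cxcl, Cx3cl, Xcl, Ccr, Cxcr, Cx3cr, Xcr or Ackr followed by a digit, without subunits of the CNOT complex and symbols ending in -ps. This rule gave 67 of 32285 rows with 61 distinct symbols, since Ccl27a, Ccl21a, Ccl21b, Ccl21c and Ccl19 have more than 1 row. The rows comprised 30 for CC ligands, 12 for CXC ligands, 2 for CX3C and XC ligands, 11 for CC receptors, 6 for CXC receptors, 2 for CX3C and XC receptors and 4 for atypical receptors. At least 50 molecules (unique molecular identifiers, UMIs) over the 3 libraries were counted for 33 members, 18 had 1 to 49 UMIs, and 16 rows had none.

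Single cells came from whole kidneys of male mice at 28 weeks of age, with 1 droplet library per group. The groups were db/db mice given a diet with 60% fructose, db/db mice given a fructose-free control diet, and db/m mice given the control diet, in each case for 20 weeks from 8 weeks of age. The db/db mouse carries 2 mutant copies of the leptin receptor gene, lacks its working long form throughout the body, and becomes obese and diabetic, whereas the lean db/m mouse also carries 1 mutant copy. How many mice stand behind a library is not given in the sources used here. Kidneys were perfused, digested with collagenase and pronase at 37 °C, and freed of red cells, debris and dead cells. With 1 library per group nothing was tested, and each interval below covers counting error alone.

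Chemokines are small secreted proteins that bind heparan sulphate on cell surfaces and matrix and guide leukocytes along gradients. Most act on receptors of the 7-transmembrane type that couple to inhibitory G proteins in leukocytes, and atypical receptors bind chemokines without that coupling and take them up. In kidney, tubule and vessel cells make some chemokines constitutively, resident macrophages carry CX3CR1, and injured tubules and infiltrating leukocytes are known sources of others.

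The genes of several members lie side by side. The promoters of Cxcl1, Cxcl2 and Cxcl10, a part of the CXC ligands on chromosome 5, are shown because these ligands recur in the cell classes below. Windows of 300 bases around the transcription start (RefSeq, GRCm38.p6) were found for 46 of the 61 symbols. A κB-type motif, GGG and TTCC with any 3 bases between them, searched on both strands, is in capitals, and overlapping matches run together. The Cxcl1 window, chr5:90890995-90891294 on the plus strand, held 3 matches that begin at bases 162, 180 and 181, counted from 1 at the 5′ end of the window. The Cxcl2 window, chr5:90903649-90903948 on the plus strand, held 3 at bases 154, 155 and 173, and the Cxcl10 window, chr5:92348840-92349139 on the minus strand, held 2 at bases 92 and 147. The window of Cxcl12, chr6:117168285-117168584 on the plus strand, a ligand known for constitutive expression, held none.
Cxcl1: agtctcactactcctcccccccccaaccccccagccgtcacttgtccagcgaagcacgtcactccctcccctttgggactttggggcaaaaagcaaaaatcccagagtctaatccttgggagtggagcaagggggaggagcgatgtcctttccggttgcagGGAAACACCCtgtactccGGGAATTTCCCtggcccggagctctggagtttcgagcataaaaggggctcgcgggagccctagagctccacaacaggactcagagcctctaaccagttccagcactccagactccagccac
Cxcl2: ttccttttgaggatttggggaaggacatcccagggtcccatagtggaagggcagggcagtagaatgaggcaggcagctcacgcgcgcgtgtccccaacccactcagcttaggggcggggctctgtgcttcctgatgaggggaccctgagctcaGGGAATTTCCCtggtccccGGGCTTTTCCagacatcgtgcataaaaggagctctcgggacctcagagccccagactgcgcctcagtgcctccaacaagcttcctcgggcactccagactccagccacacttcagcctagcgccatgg
Cxcl10: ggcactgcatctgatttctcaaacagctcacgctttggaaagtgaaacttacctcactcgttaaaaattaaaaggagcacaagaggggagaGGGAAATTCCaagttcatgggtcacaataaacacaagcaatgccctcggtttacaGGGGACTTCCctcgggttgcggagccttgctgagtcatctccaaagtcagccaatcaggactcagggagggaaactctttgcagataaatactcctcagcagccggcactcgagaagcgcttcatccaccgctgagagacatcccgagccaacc
Cxcl12: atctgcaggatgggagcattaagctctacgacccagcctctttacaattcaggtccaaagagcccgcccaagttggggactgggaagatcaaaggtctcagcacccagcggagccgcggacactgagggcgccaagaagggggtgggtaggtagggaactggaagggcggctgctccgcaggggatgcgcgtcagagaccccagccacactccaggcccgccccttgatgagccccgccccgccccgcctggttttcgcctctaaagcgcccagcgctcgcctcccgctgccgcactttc
The motif was present in 9 of 53 windows of the members, or 17.0%, and in 1825 of all 32851 windows, or 5.56%. Besides Cxcl1, Cxcl2 and Cxcl10, the windows with a match were those of Ccl1, Ccl9, Ccl20, Cxcl3, Ccr3 and Ccr6. The windows of Cxcl9, Cxcl13 and Cxcl15, also CXC ligands on chromosome 5, held no match, so the printed windows do not stand for all of them. A match describes these letters only, and the motif was picked with the expression values known.

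After filtering, 16049 cells of the db/db fructose library, 16227 of the db/db control library and 9940 of the db/m library were kept, with 32144597, 32315995 and 22789792 UMIs. Their median depths were 1531, 1628 and 1679 UMIs, and their median shares of mitochondrial UMIs were 10.6%, 24.6% and 15.1%, so this share moved with the groups. One cluster of 373, 2734 and 60 cells with a high mitochondrial share was left unnamed. Of the kept cells, 877, 806 and 626 carry a barcode sequence that also occurs in another library. Phagocytes and endothelium carried their defining markers: C1qa was at 2097, 1808 and 2197 CPM (UMIs scaled to a total of 1000000 in the cells named) in mononuclear phagocytes and at 0.978 to 1.95 CPM elsewhere, and Pecam1 was at 890, 739 and 752 CPM in endothelium. Lymphocytes had Cd3e at 187, 89.6 and 185 CPM, but the B cell gene Cd79a reached only 17.6, 12.8 and 17.4 CPM there. The summed B cell markers were higher in phagocytes, at 272, 185 and 1115 CPM, than in lymphocytes, at 123, 160 and 168 CPM. Plasma cell markers in lymphocytes summed to 35.1, 19.2 and 7881 CPM and neutrophil markers to 5.86, 25.6 and 788 CPM, and the part of such cells in the lymphocyte values below was not tested. Phagocytes also differed in make-up: sub-clusters that best matched the marker list of a tubule segment were 37.4%, 45.4% and 21.9% of the class. The C1qa and C1qb cluster was 29.5%, 30.9% and 38.5%, and the Mki67 and Stmn1 cluster, which best matched the list of dividing cells, was 9.51%, 6.36% and 13.5%.

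Over all kept cells the members summed to 11475 UMIs in the db/db fructose library, 8597 in the db/db control library and 6162 in the db/m library. The CC ligands came to 135, 107 and 91.3 CPM in these libraries, the CXC ligands to 141, 91.1 and 87.3, and the CX3C and XC ligands to 31.2, 26.3 and 25.7. Receptors were counted less deeply, with 11.4, 7.46 and 8.38 CPM for the CC receptors, 5.85, 4.95 and 4.04 for the CXC receptors and 3.98, 4.24 and 1.93 for Cx3cr1 and Xcr1. The ligand families were highest in the db/db fructose library, but the log2 ratios of fructose over control of 0.33 for CC ligands and 0.25 for CX3C and XC ligands lay at or under the median of 0.33 over all genes, beside 0.63 for CXC ligands. By contrast, the atypical receptors, at 28.9, 25.2 and 51.8 CPM, were highest in the db/m library. In such sums over a whole library, more cells of a type and more RNA per cell cannot be told apart.

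**Figure D1:**
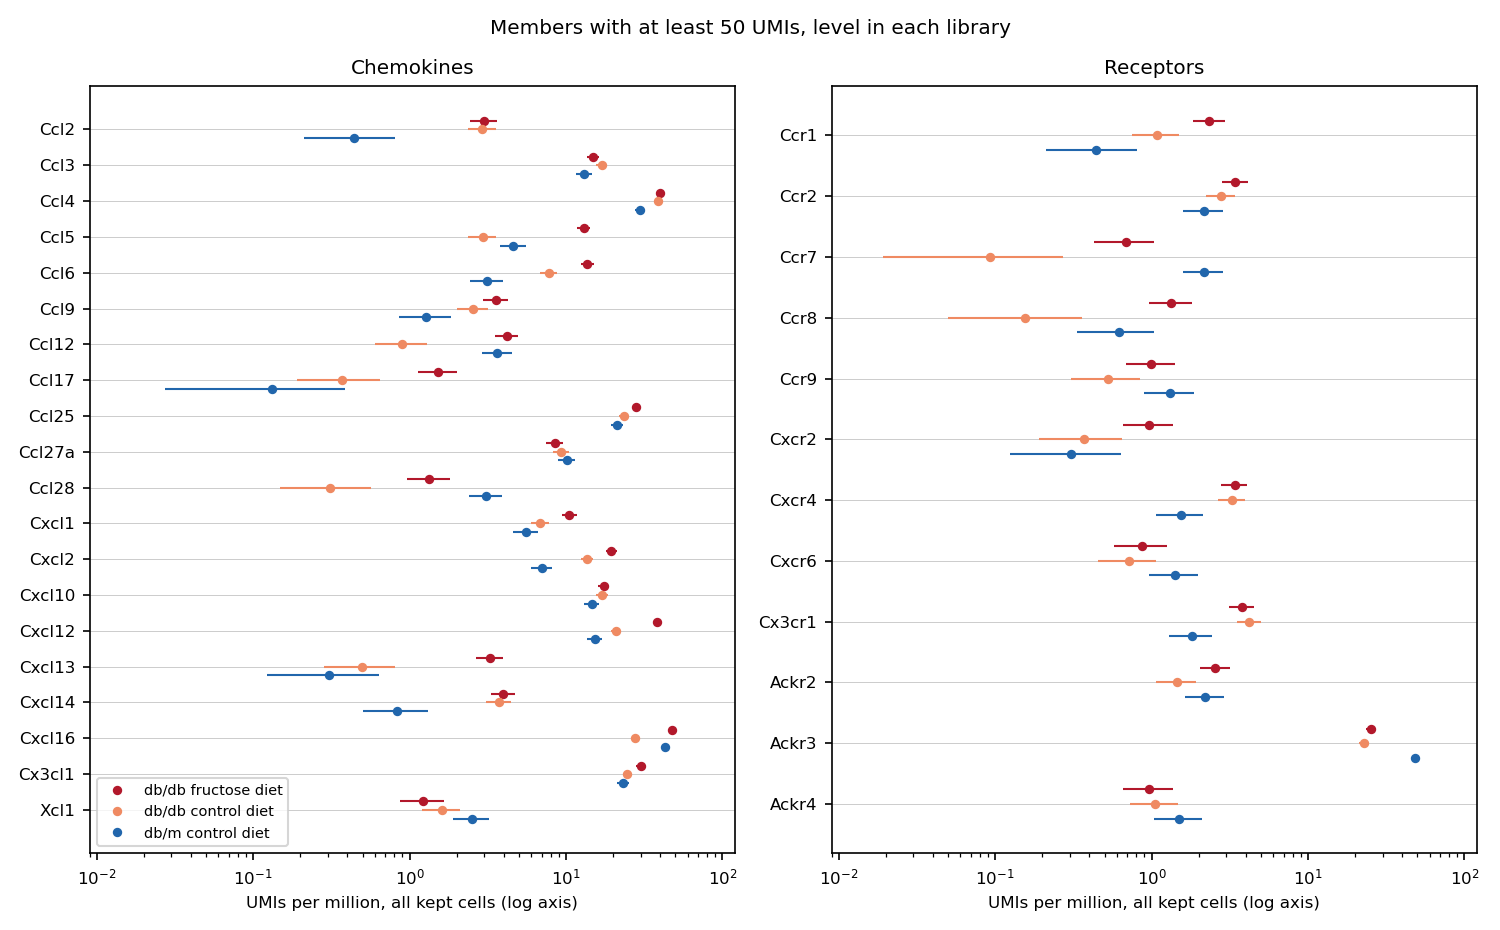
Level of members with at least 50 UMIs in all kept cells, as CPM on a log axis, with 1 point per library and its exact Poisson 95% interval; chemokines are on the left and receptors on the right. Cxcl12 lies at 38.0 in the db/db fructose, 20.9 in the db/db control and 15.2 in the db/m library, and Ackr3 lies at 25.3, 22.7 and 48.1.

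For fructose against control diet in db/db mice, 39 members had the 20 UMIs asked of 2 libraries together. Of these, 17 were at least 1.5-fold higher in the db/db fructose library, where 19.8% of all 15898 measured genes were that much higher, and 2 were at least 1.5-fold lower, against 1.84% of all genes. The median log2 ratio of the members was 0.48, and that of all genes was 0.33. The genome-wide median therefore lay above 0, and after size factors had removed that shift 12 members were higher (8.06% of all genes) and 3 lower (4.67% of all genes). The 17 were the ligands Ccl5, Ccl6, Ccl12, Ccl17, Ccl20, Ccl24, Ccl28, Cxcl1, Cxcl12, Cxcl13 and Cxcl16, the receptors Ccr1, Ccr7, Ccr8, Ccr9 and Cxcr2, and the scavenger Ackr2. Cxcl9 and Ccr6 were lower, at 4 and 9 UMIs in the db/db fructose library against 20 and 15 UMIs in the db/db control library.

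For db/db against db/m mice on the control diet, 33 members were measured. In the db/db control library 11 were at least 1.5-fold higher, against 8.1% of all 15464 measured genes, and 10 were at least 1.5-fold lower, against 13.1% of all genes. The higher members included the ligands Ccl2, Ccl6, Ccl9, Cxcl2 and Cxcl14 and the receptors Ccr1, Cxcr4 and Cx3cr1. The lower members were Ccl5, Ccl12, Ccl28, Cxcl16, Xcl1, Ccr7, Ccr9, Cxcr6, Ackr2 and Ackr3. The members' median log2 ratio was 0.26, beside a median of -0.09 for all genes, and with size factors 11 members were higher (9.8% of all genes) and 6 lower (10.3%). Several of the higher members are genes of mononuclear phagocytes, whose kept cells numbered 305 in the db/db fructose, 346 in the db/db control and 96 in the db/m library. These numbers include the sub-clusters that best matched a tubule list.

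**Figure D2:**
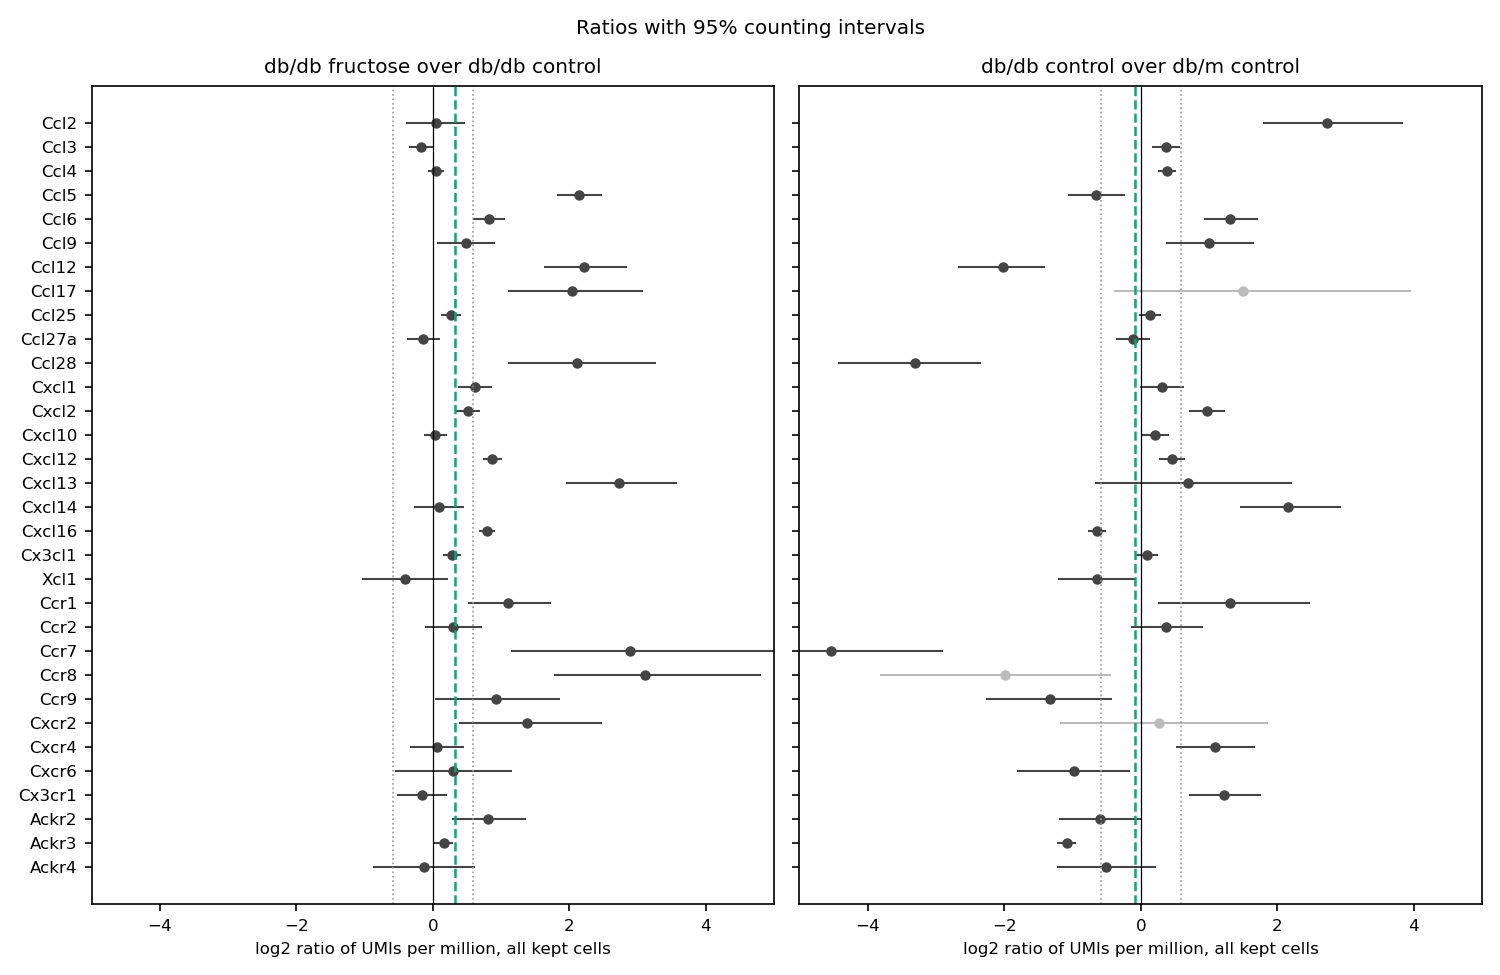
Log2 ratio of CPM in all kept cells for members with at least 50 UMIs, db/db fructose over db/db control on the left and db/db control over db/m on the right, with 95% counting intervals; the dashed line is the median of all measured genes, the dotted lines are 1.5-fold, grey points have under 20 UMIs, and the axes end at 5. Ccl5 lies at 2.14 on the left and at -0.65 on the right, and Ccl12 lies at 2.22 and -2.02.

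Members were ranked by their level per class within each library, among classes with at least 20 cells there. The highest class was the same in every ranked library for 18 of the 33 members with 50 UMIs, and it differed for 15. The 4 neutrophils of the db/m library were not ranked: Ccl6 and Ccr1, counted among the 15, were highest in neutrophils of both db/db libraries and stood at 941 and 376 CPM in those 4 cells, above the 216 and 19.6 CPM of db/m phagocytes. Cxcl2 and Cxcr4, also among the 15 and highest in neutrophils of both db/db libraries, had 0 UMIs in those 4 cells. Cxcr4 was at 145 and 90.0 CPM in neutrophils of the db/db fructose and db/db control libraries. Mononuclear phagocytes led for 9 of the 18, among them the ligands Ccl3, Ccl4, Ccl9, Ccl12, Cxcl14 and Cxcl16 and the receptors Ccr2 and Cx3cr1. Lymphocytes led for Ccl5, Xcl1, Ccr8, Ccr9 and Cxcr6. The other 4 were Cxcr2 in neutrophils, Ackr2 in endothelium, Ackr3 in thin limb cells, and Cxcl13 in the class of pericytes, mesangial and smooth muscle cells. Among receptors, leukocytes led for all those that signal through G proteins in this group, and the atypical receptors Ackr2 and Ackr3 had their highest levels in vessels and tubules.

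**Figure D3:**
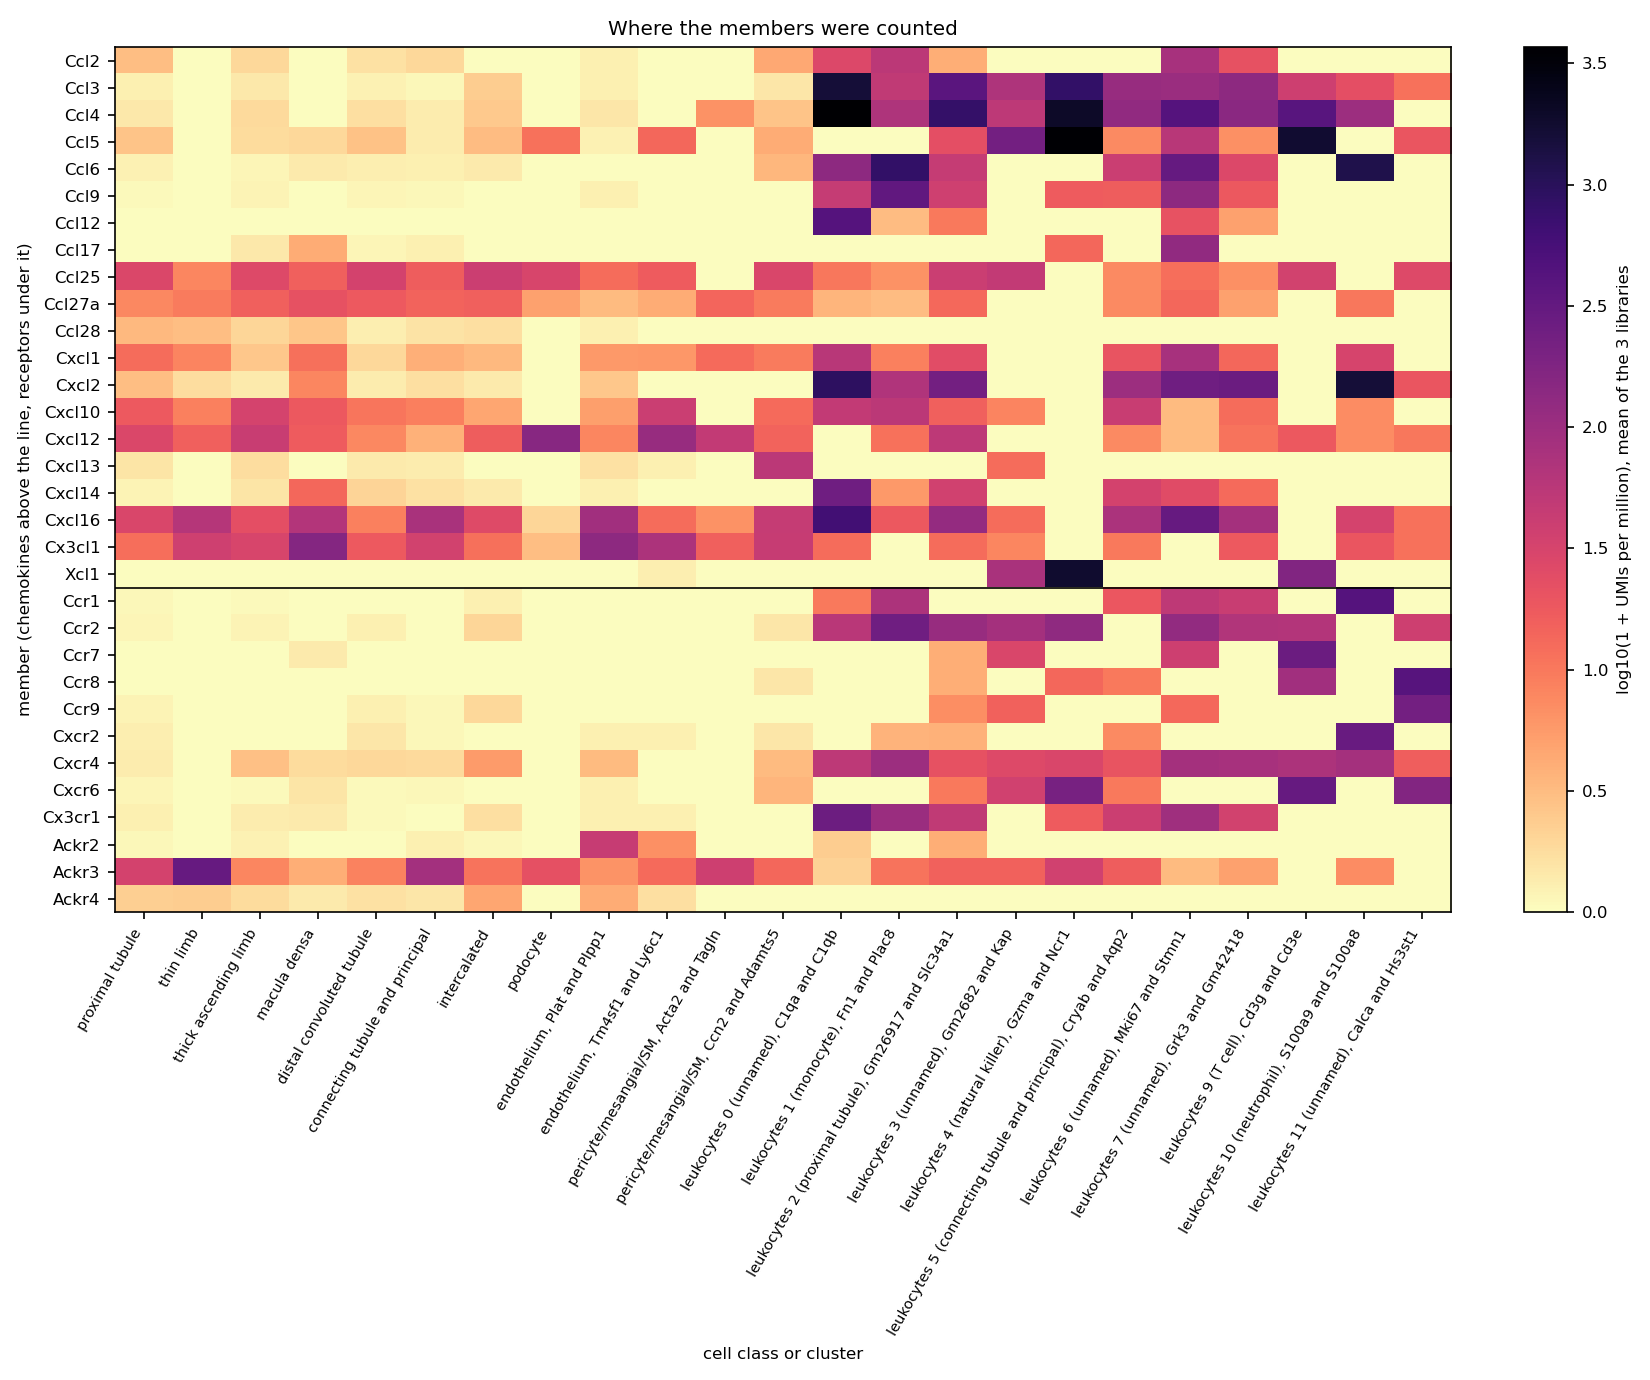
Level of members with at least 50 UMIs (rows, ligands above the line and receptors under it) in kidney classes and clusters (columns), as log10 of 1 plus CPM, averaged over the 3 libraries. Receptors such as Ccr2 and Cx3cr1 are darkest in leukocyte columns, whereas Cxcl12, Cxcl16, Cx3cl1, Ccl25 and Ackr3 are spread over tubule and vessel columns.

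Ccl4 and Ccl3, CC ligands that attract monocytes and lymphocytes, belonged to mononuclear phagocytes, which held 91.4%, 92.2% and 94.0% of the Ccl4 UMIs in the db/db fructose, db/db control and db/m libraries. Ccl4 stood at 1379 CPM in phagocytes of the db/db fructose library, 1347 in the db/db control library and 2083 in the db/m library. The log2 ratio of db/db control over db/m was -0.63 (95% counting interval -0.77 to -0.49), and that of fructose over control was 0.03 (-0.08 to 0.15). Ccl3 was also highest in the db/m library, with 530, 602 and 847 CPM. The C1qa and C1qb cluster of macrophage-type cells held 900, 811 and 569 of the Ccl4 UMIs in 90, 107 and 37 cells. Those cells had 243316, 294543 and 123031 UMIs of all genes. Phagocytes carried tubule markers at 30.6%, 46.1% and 21.3% of the level over the whole library, taken as a measure of free RNA. With that share subtracted the Ccl4 ratio of db/db control over db/m was -0.13. The sub-clusters that matched a tubule list also enter this measure. Ccl4 itself was at only 39.9, 38.8 and 29.8 CPM over all kept cells. Whether free RNA lies behind the shift of the ratio was not tested. Ccl4 was counted in 28.9%, 28.9% and 27.1% of phagocytes (median depths 2224, 2111.5 and 2760.5 UMIs) and in 0.0804%, 0.107% and 0.0336% of proximal tubule cells (median depths 1490, 1601 and 1534.5 UMIs), which lack it.

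Over classes, 23 members were measured in phagocytes for the diet comparison, and 9 were at least 1.5-fold higher (20.2% of all genes) and 4 lower (6.57%) in the db/db fructose library. With size factors 5 were higher (10.7%) and 4 lower (12.3%), and Ccl6 was then not among the higher ones. Ccl6, a ligand of CCR1 in mouse, was at 388, 230 and 216 CPM in the db/db fructose, db/db control and db/m libraries, a log2 ratio of fructose over control of 0.76 (0.50 to 1.02). The Fn1 and Plac8 monocyte cluster had 245, 122 and 26 of its UMIs, or 991, 770 and 763 CPM, and neutrophils had 92, 38 and 5, or 1486, 855 and 941 CPM. Ccl9, another CCR1 ligand, was at 127, 88.6 and 91.6 CPM in phagocytes. For db/db control over db/m, 18 members were measured in phagocytes, with 3 higher (17.1% of all genes) and 4 lower (19.4%).

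The ligands of CCR2, the receptor by which monocytes enter tissue from blood, had low counts. Ccl2 had 63 UMIs in phagocytes of the db/db fructose library, 21 in the db/db control library and 3 in the db/m library, or 74.1, 24.5 and 9.81 CPM. Fructose over control gave a log2 ratio of 1.60 (0.86 to 2.38). A cluster led by Mki67 and Stmn1, genes of dividing cells, held 33, 1 and 0 of these UMIs, and 19 of the 33 came from 1 cell. In proximal tubule cells the order differed, with 1.22, 4.46 and 0.423 CPM, and 24 of the 50 UMIs of the db/db control library came from 1 cell. Ccl12, which also binds CCR2 in mouse, was at 156, 32.7 and 271 CPM in phagocytes, and 124, 23 and 83 of its 133, 28 and 83 UMIs were in the C1qa and C1qb cluster. The db/db control library was lowest, with log2 ratios of -3.06 (-3.73 to -2.42) against db/m and of 2.26 (1.66 to 2.90) for fructose over control. One db/m cell held 62 of the 83 UMIs, and without the highest cell of each library the ratio of db/db control over db/m was -2.07. Ccl7 had 20, 12 and 2 UMIs in phagocytes, and Ccl8 and Ccl11 had none in any library.

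Ccl5 is a product of activated T and natural killer cells that attracts further T cells and monocytes. In lymphocytes it was at 1698 CPM in the db/db fructose library, 410 in the db/db control library and 353 in the db/m library. Fructose over control gave a log2 ratio of 2.05 (1.66 to 2.47), or 2.24 without the highest cell of each library, whereas db/db control over db/m gave 0.21 (-0.32 to 0.74). Both of its main clusters were highest in the db/db fructose library: the natural killer cluster was at 7223, 1606 and 1766 CPM in 10, 9 and 8 cells, and the T cell cluster at 3555, 1047 and 601 CPM in 14, 8 and 9 cells. Lymphocytes with a Ccl5 UMI were 30%, 13.8% and 21.2% of their class at median depths of 1398.5, 1483 and 1569 UMIs, and 34.9%, 9.59% and 18.6% with each cell thinned to 1000 UMIs. Proximal tubule cells with a Ccl5 UMI were 0.322%, 0.169% and 0.151%.

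In each comparison 7 members were measured in lymphocytes. For fructose over control 3 were higher (26.8% of all genes) and none lower (6.8%), but with size factors 2 were higher (15.6%) and 2, Ccl3 and Xcl1, lower (14.7%). For db/db control over db/m 1 was higher (15.6%) and 3 were lower (26.1%). The dissociation and immediate-early genes moved beside these counts, with 6 of 10 measured ones at least 1.5-fold higher in lymphocytes of the db/db fructose library than of the db/db control library, and their part in the result was not tested. Xcl1, the ligand of XCR1 on cross-presenting dendritic cells, was led by the natural killer cluster, at 1685, 1568 and 2181 CPM in the db/db fructose, db/db control and db/m libraries. Over all lymphocytes it was at 223, 320 and 318 CPM, with intervals of both ratios that include 0.

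**Figure D4:**
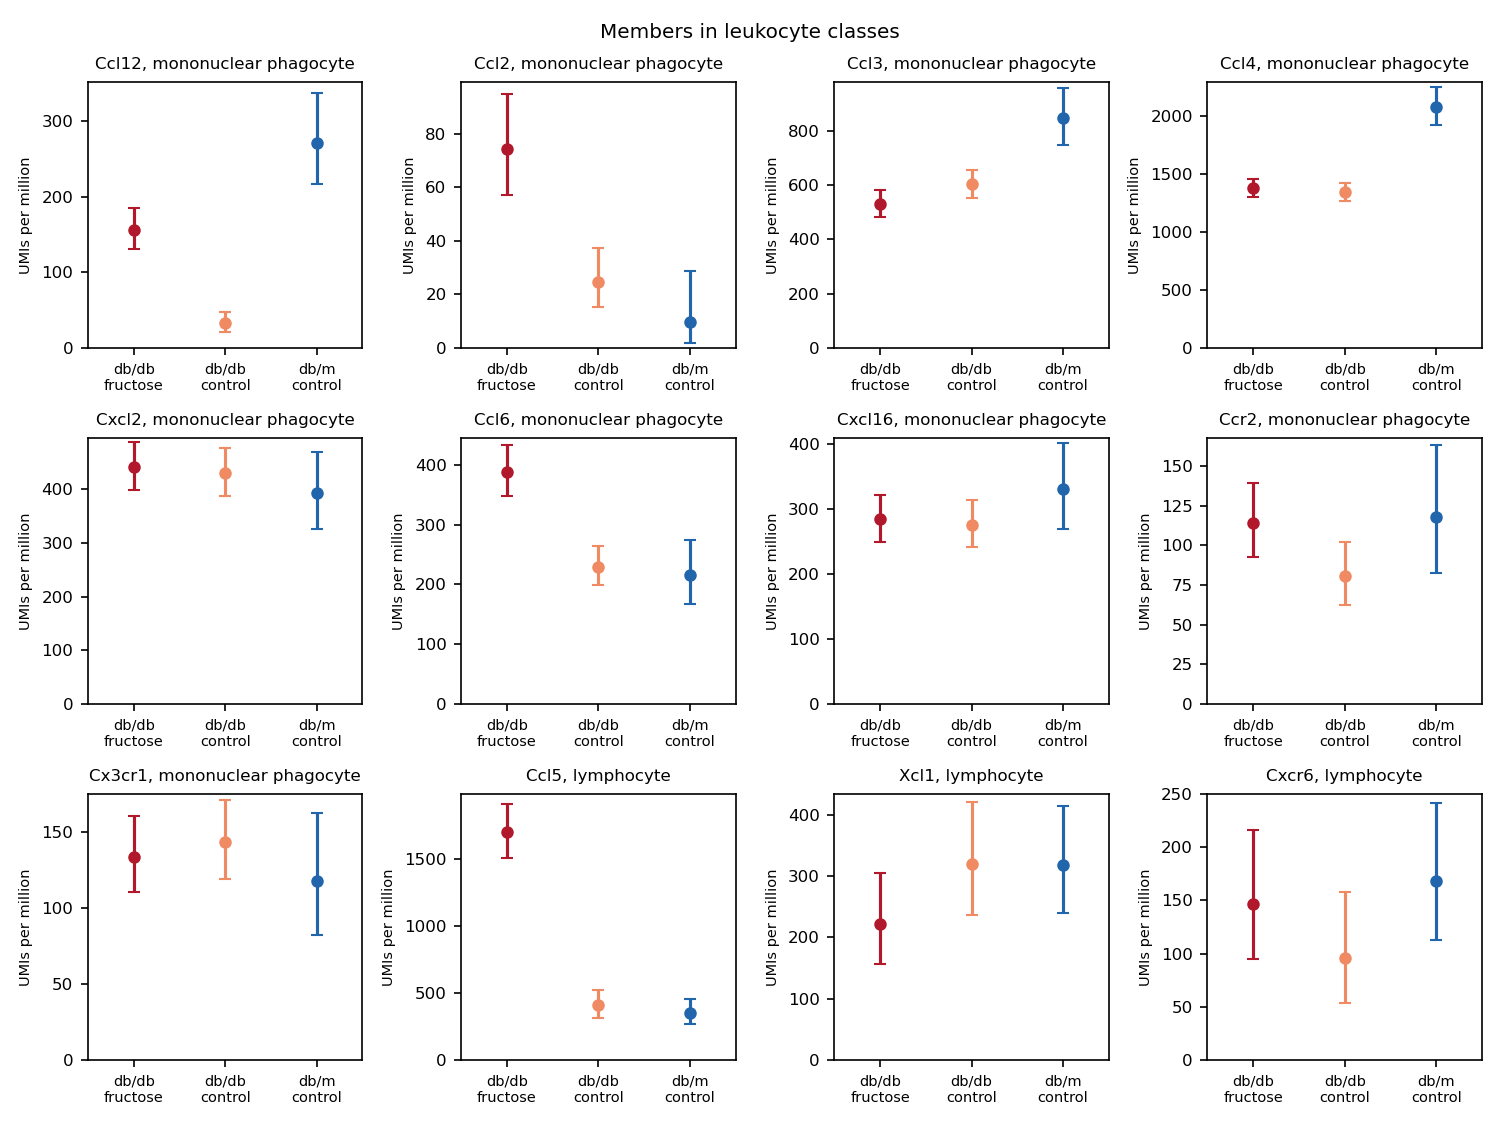
CPM in mononuclear phagocytes and lymphocytes for 12 pairs of member and class, with exact Poisson 95% intervals and 1 point per library. Ccl5 in lymphocytes lies at 1698 in the db/db fructose library, 410 in the db/db control library and 353 in the db/m library; Ccl12 in phagocytes lies at 156, 32.7 and 271.

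The ligands of CXCR2, which draw neutrophils, summed to 30.2 CPM in all kept cells in the db/db fructose library, 20.5 in the db/db control library and 12.5 in the db/m library. Cxcl2 was at 441, 430 and 392 CPM in phagocytes. Neutrophils held 29.8%, 10.9% and 0% of its UMIs, with 42, 24 and 4 such cells kept, and were at 3021 CPM in the db/db fructose library and 1080 in the db/db control library. The kept neutrophils follow the order of the summed ligands, but that sum includes the 187, 48 and 0 Cxcl2 UMIs of the neutrophils themselves. How far neutrophil numbers and the ligands of other cells are linked was not tested. Cxcl3 had 3, 0 and 0 UMIs, and Cxcl5 had 4, 1 and 0.

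Proximal tubule cells held the largest share of the Cxcl1 UMIs in each library, although the level was higher in phagocytes. This share was 69.5%, 45.2% and 83.3% in the db/db fructose, db/db control and db/m libraries. The class itself was 54.3%, 40.2% and 59.9% of the kept cells. Its Cxcl1 level was 15.97, 8.92 and 8.89 CPM, a log2 ratio of fructose over control of 0.84 (0.50 to 1.19). In phagocytes the order was different, with 25.9, 63.0 and 13.1 CPM and a log2 ratio of fructose over control of -1.28 (-2.07 to -0.54). Proximal tubule cells with a Cxcl1 UMI were 2.02%, 0.997% and 0.806% of their class, and no lymphocyte had one.

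The proximal tubule class was made of different clusters in the 3 libraries, and this touches each value given for it. Clusters led by Slc6a18 and Pck1 and by Snhg11 and Slc5a12 held 31.7% and 37.7% of the class in the db/db fructose library. In the db/db control library the clusters led by Mlxipl and Slc6a18, by Snhg11 and Slc5a12 and by Slc34a1 and Slc5a2 held 39.5%, 29.5% and 25.6%. In the db/m library the clusters led by Kap and Acy3, by Atp11a and Slc22a30 and by Snhg11 and Keg1 held 32.1%, 30.1% and 28.9%. A small cluster led by Gpx1, with 643, 90 and 159 cells, was 7.38%, 1.38% and 2.67% of the class, and carried a large part of the class's Cxcl1, Cxcl10 and Cxcl16.

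In the Gpx1-led cluster Cxcl1 was at 28.4 CPM in the db/db fructose library, 151 in the db/db control library and 64.7 in the db/m library, so there fructose over control was -2.41 (-3.02 to -1.79) on the log2 scale. In the Slc6a18 and Pck1, Mlxipl and Slc6a18, Slc34a1 and Slc5a2, and Snhg11 and Slc5a12 clusters the log2 ratios were 1.36, 2.15, 0.94 and 0.25, and the second alone had an interval that leaves out 0. Ccl2 was at 6.31, 140 and 1.77 CPM in the Gpx1-led cluster, where 39 of the 50 proximal UMIs of the db/db control library lay. Cxcl10 was at 73.6, 194 and 161 CPM there. The direction of Cxcl1 between diets therefore depended on which proximal cells were summed.

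Cxcl16, made as a membrane protein that is shed and binds CXCR6 on T and natural killer T cells, had the widest gap between diets among the proximal ligands with over 100 UMIs in each library. Its level in proximal tubule cells was 33.4 CPM in the db/db fructose library, 12.6 in the db/db control library and 39.0 in the db/m library. The log2 ratio was 1.41 (1.14 to 1.69) for fructose over control, and the db/db control library against db/m gave -1.63 (-1.92 to -1.36). The Gpx1-led cluster carried 260 of 492, 42 of 141 and 347 of 461 of these UMIs. Within that cluster the levels were 137, 151 and 308 CPM, so fructose over control was -0.14 (-0.62 to 0.36) and db/db control over db/m was -1.03 (-1.53 to -0.57). In the Slc34a1 and Slc5a2 cluster the level was 36.0 CPM in the db/db fructose library and 10.4 in the db/db control library, a log2 ratio of 1.79 (1.05 to 2.56). Connecting tubule and principal cells also had the lowest level in the db/db control library, with 90.0, 53.1 and 83.6 CPM. Phagocytes had the highest Cxcl16 level, 283, 275 and 330 CPM, and their intervals overlapped.

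Cxcl12, the ligand of CXCR4 and ACKR3 that holds blood stem cells and lymphocytes in tissue and guides vessel growth, was highest in the db/db fructose library in the proximal tubule and the thick ascending limb. Proximal tubule cells had 45.6 CPM in the db/db fructose library, 24.6 in the db/db control library and 12.6 in the db/m library, with log2 ratios of fructose over control of 0.89 (0.69 to 1.10) and of db/db control over db/m of 0.96 (0.67 to 1.26). The thick ascending limb had 59.7, 35.3 and 27.5 CPM, with 0.76 (0.44 to 1.08) for fructose over control. Endothelium had 54.0, 48.8 and 45.3 CPM, and its Tm4sf1 and Ly6c1 cluster 111, 98.2 and 120, with no order of libraries beyond the intervals. Podocytes were the highest ranked class in the db/m library, at 104 CPM. They had 4, 5 and 34 UMIs in the 3 libraries, from 12, 7 and 105 cells.

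Within the proximal tubule Cxcl12 was unevenly spread. The Slc6a18 and Pck1 cluster had 98.1 CPM in the db/db fructose library, from 483 of the 672 proximal UMIs, and 65.9 in the db/db control library, a log2 ratio of 0.57 (0.02 to 1.18). In the Gpx1-led, Mlxipl and Slc6a18, Slc34a1 and Slc5a2, and Snhg11 and Slc5a12 clusters the log2 ratios were 1.44, 0.27, 0.62 and 0.33, each with an interval that includes 0, and the first of them rests on 2 UMIs of the db/db control library. For db/db control over db/m, the Gpx1-led cluster gave -1.84 (-4.95 to 0.14) and the Snhg11 and Slc5a12 cluster 0.86 (-1.09 to 3.95), so no cluster that could be compared showed the ratio of the whole class beyond counting error. The Slc6a18 and Pck1 cluster was 31.7% of the class in the db/db fructose library and 3.24% in the db/db control library. Dpp4, a protease that inactivates CXCL12, was also highest in proximal cells of the db/db fructose library, at 89.5, 59.0 and 55.0 CPM.

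Cxcl10, an interferon-induced ligand of CXCR3 on activated T cells, was at 31.8 CPM in the thick ascending limb of the db/db fructose library, 53.5 in the db/db control library and 9.17 in the db/m library. The log2 ratio of db/db control over db/m was 2.55 (1.94 to 3.21), and that of fructose over control was -0.75 (-1.09 to -0.42). Recomputed with finer clustering these were 1.79 and -0.23. Proximal tubule cells had 16.4, 14.4 and 19.1 CPM. In endothelium the values were 2.90, 4.55 and 43.0 CPM, where 53 of 56 db/m UMIs came from 1 cell. Cxcl9, the other interferon-induced ligand counted, had 4, 20 and 14 UMIs, of which 15 in the db/db control and 10 in the db/m library came from 1 phagocyte each.

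Cx3cl1, or fractalkine, is the membrane-bound ligand of CX3CR1 and had high levels in endothelium and macula densa. Endothelium had 119 CPM in the db/db fructose library, 95.1 in the db/db control library and 104 in the db/m library, with log2 ratios of 0.32 (0.07 to 0.57) and -0.12 (-0.44 to 0.19) for the 2 comparisons. Macula densa cells had 105, 162 and 212 CPM in 150, 140 and 41 cells, with a log2 ratio of fructose over control of -0.62 (-1.05 to -0.19). Cx3cl1 was found in 23.5%, 18.5% and 18.3% of endothelial cells (median depths 2403, 2205 and 2549 UMIs), beside 0%, 2.30% and 2.35% of lymphocytes.

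Cxcl13, the ligand by which B cells are drawn to follicles, was highest in the pericyte, mesangial and smooth muscle class. It had 72 UMIs there in the db/db fructose library, 6 in the db/db control library and 3 in the db/m library, or 93.4, 23.8 and 15.3 CPM, and all lay in the Ccn2 and Adamts5 cluster of 398, 95 and 82 cells. Fructose over control gave a log2 ratio of 1.97 (0.78 to 3.47), and 1 cell held 14 of the 72 UMIs. Cells with a UMI were 7.11%, 4.17% and 1.92% of the class (median depths 1557.5, 1807 and 1321.5 UMIs), beside 0.184%, 0.0613% and 0.0336% of proximal tubule cells. Its receptor Cxcr5, a gene of follicular B and T cells, had 2, 3 and 8 UMIs over all kept cells.

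**Figure D5:**
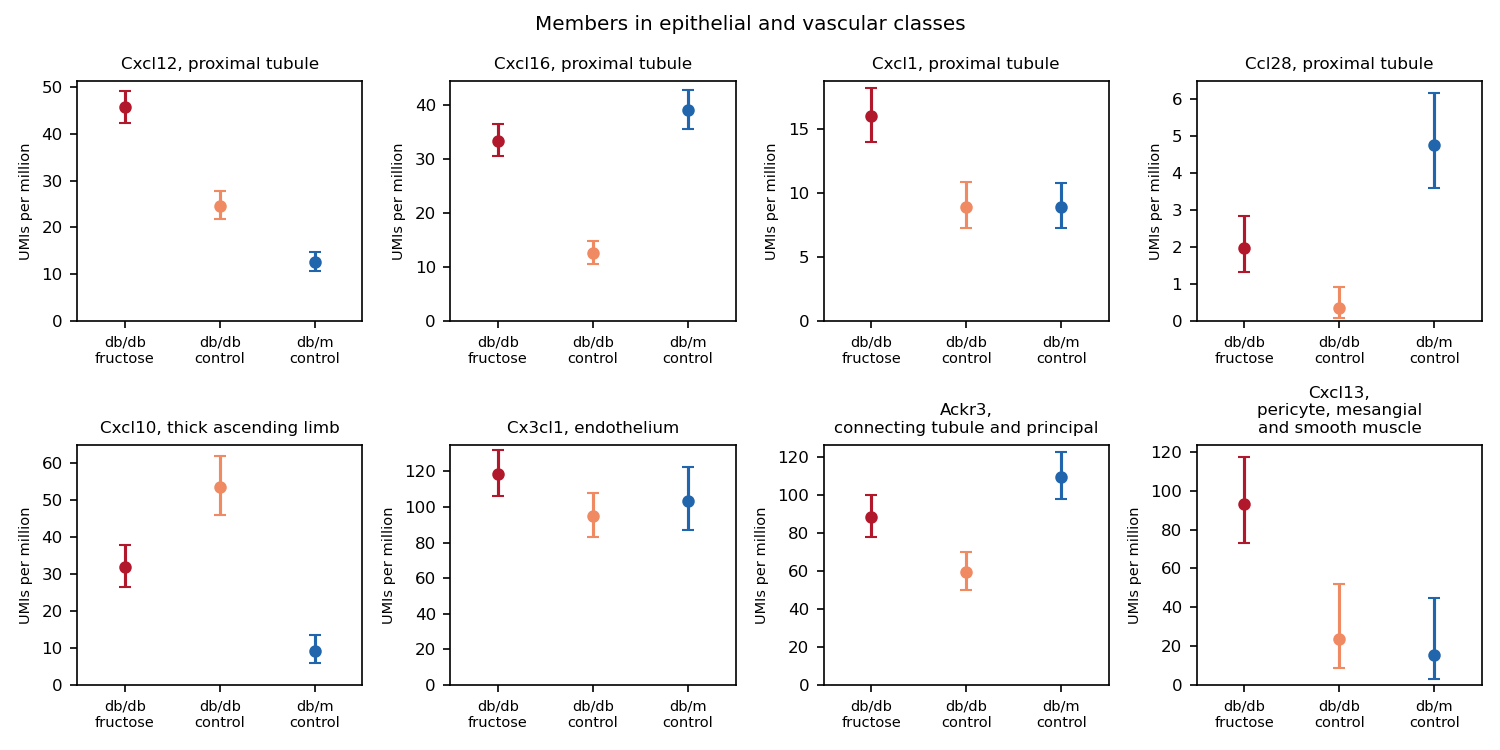
CPM of 8 members in tubule, vessel and stromal classes, with exact Poisson 95% intervals and 1 point per library. Cxcl12 in proximal tubule lies at 45.6 in the db/db fructose library, 24.6 in the db/db control library and 12.6 in the db/m library, and Cxcl16 there lies at 33.4, 12.6 and 39.0.

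The mucosal ligand Ccl28, which binds CCR10, was found in proximal tubule cells with 29 UMIs in the db/db fructose library, 4 in the db/db control library and 56 in the db/m library. Its log2 ratios there were 2.46 (0.95 to 4.43) for fructose over control, and the db/db control library against db/m gave -3.73 (-5.66 to -2.30). None of these UMIs was in the Gpx1-led cluster. The db/m UMIs lay in the Atp11a and Slc22a30, Snhg11 and Keg1, and Kap and Acy3 clusters, at 35, 10 and 11. These clusters had 7, 20 and 33 cells in the db/db control library, so the genotype ratio could not be followed within a cluster. Between diets the Slc6a18 and Pck1 cluster, with 19 UMIs against 1, gave 0.71 (-1.94 to 6.09). Ccl25, known as the thymic and gut ligand of CCR9, was diffuse, with 30.8, 24.6 and 26.3 CPM in proximal tubule cells and 31.3, 26.2 and 21.3 in the thick ascending limb. Ccl27a stood at 8.46, 9.31 and 10.1 CPM in all kept cells. Ccl25 overlaps Elavl1, Ccl27a overlaps Il11ra1, Cxcl16 overlaps Zmynd15 and Cxcl10 overlaps Art3 on the opposite strand, and use of strand in the counting is not given in the sources used here. Of the 3 rows named Ccl27a, 2 had no UMI.

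Cxcl14 is a ligand with no agreed classical receptor. Phagocytes held 92, 93 and 19 of its UMIs, or 108, 108 and 62.1 CPM in the db/db fructose, db/db control and db/m libraries, mostly in the C1qa and C1qb cluster. The db/db control over db/m log2 ratio was 0.80 (0.08 to 1.60). The dendritic cell ligands of CCR4 rested on single cells: Ccl17 had 43, 5 and 1 UMIs in phagocytes, with 38 of the 43 in 1 cell, and Ccl22 had 15, 3 and 0, with 15 in 1 cell. Ccl24, an eosinophil ligand, had 24, 0 and 0 UMIs, 21 of them in 1 cell. Ccl20, the ligand of CCR6, had 31, 7 and 2 UMIs over all kept cells, 18 of them in 1 macula densa cell of the db/db fructose library. Without the highest cell of each library the Ccl17 log2 ratio of fructose over control over all kept cells was 0.30 instead of 2.04.

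The remaining ligands gave few UMIs. In the db/db fructose, db/db control and db/m libraries Cxcl17 had 10, 5 and 0, Ccl1 had 2, 1 and 13 with 9 in 1 cell, and Ccl19, a ligand of CCR7, had 1, 0 and 0. Ccl8, Ccl11, Ccl21a, Ccl21b, Ccl21c, Ccl26, Ccl27b and Cxcl15 had 0 UMIs, as had the receptors Ccr4 and Ccr1l1, and a count of 0 allows up to 3 UMIs in a library. Near-identical copies, as among the Ccl21 and Ccl27 genes, may split or lose reads, so these values are uncertain.

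In phagocytes the receptors Cx3cr1, Ccr2 and Cxcr4 differed little between the libraries. Cx3cr1, the fractalkine receptor of resident macrophages, was at 134 CPM in phagocytes of the db/db fructose library, 143 in the db/db control library and 118 in the db/m library. Ccr2 was at 114, 80.5 and 118 CPM, and the CXCL12 receptor Cxcr4 at 70.6, 68.8 and 65.4. Each of these had intervals for both ratios that include 0, save Ccr2 for fructose over control, 0.50 (0.04 to 0.97). Over all kept cells, Cx3cr1 had instead 3.76, 4.21 and 1.80 CPM, a log2 ratio of db/db control over db/m of 1.23 (0.71 to 1.77). Cx3cr1 was counted in 20.98%, 22.5% and 24.0% of phagocytes, against 0.0230%, 0.0460% and 0.0671% of proximal tubule cells. Within phagocytes, the C1qa and C1qb cluster had 329, 231 and 228 CPM for Cx3cr1 and 45.2, 40.7 and 81.3 CPM for Ccr2, and the monocyte cluster had 80.9, 107 and 118 CPM for Cx3cr1 and 247, 183 and 294 CPM for Ccr2.

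Neutrophils carried Cxcr2 and Ccr1. Cxcr2 was at 291 CPM in neutrophils of the db/db fructose library, 157 in the db/db control library and 376 in the db/m library, and Ccr1 at 549, 247 and 376, from 42, 24 and 4 cells. The Cxcr2 values rest on 18, 7 and 2 UMIs, and the 4 db/m cells had 5316 UMIs of all genes, so the db/m values give no order. Of the 7 Cxcr2 UMIs of the db/m library, 5 were in proximal tubule cells. Phagocytes carried Ccr1 as well, at 40.0, 25.7 and 19.6 CPM in the db/db fructose, db/db control and db/m libraries. There it was at least 1.5-fold higher under fructose than under control diet, but not with size factors. Over all kept cells Ccr1 was at 2.33, 1.08 and 0.439 CPM, highest in the db/db fructose library. Cxcr1, the other neutrophil receptor, had 1, 0 and 0 UMIs.

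Lymphocyte receptors had counts of 5 to 41 UMIs per library. Ccr8, a receptor of regulatory and type 2 T cells, had 41 UMIs in the db/db fructose library, 5 in the db/db control library and 14 in the db/m library, or 240, 32.0 and 81.1 CPM in lymphocytes, with a log2 ratio of fructose over control of 2.91 (1.57 to 4.60). A cluster led by Calca and Hs3st1, with 20, 16 and 22 cells and no name by its markers, held 34, 3 and 12 of these UMIs. Cxcr6, the CXCL16 receptor, was at 146, 96.0 and 168 CPM and Ccr9, the gut-homing receptor, at 52.7, 64.0 and 86.9. Cxcr3, the receptor of CXCL9 and CXCL10, was at 64.4, 64.0 and 52.1 CPM. None of these 3 had a ratio whose interval leaves out 0.

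Ccr7, which brings dendritic and naive T cells to lymph nodes, was uneven. Phagocytes had 12, 0 and 32 UMIs, and lymphocytes 9, 3 and 17, in the db/db fructose, db/db control and db/m libraries. All 12 of the db/db fructose phagocyte UMIs were in 1 cell, and 30 of the 32 db/m phagocyte UMIs were in a cluster led by immunoglobulin genes that had 6, 2 and 11 cells and no name by its markers. Ccr6 had 9, 15 and 5 UMIs, Ccr10 had 7, 4 and 4, Xcr1 had 7, 1 and 3, Cxcr3 had 17, 17 and 10, and Ccr3 had 0, 1 and 0 over all kept cells.

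Of the atypical receptors, Ackr3, which takes up CXCL12, was at 292 CPM in thin limb cells of the db/db fructose library, 297 in the db/db control library and 302 in the db/m library. Thin limb levels thus did not differ beyond counting error, with log2 ratios of -0.02 (-0.45 to 0.42) for fructose over control, and the db/db control library against db/m gave -0.02 (-0.45 to 0.40). In connecting tubule and principal cells Ackr3 was at 88.6, 59.4 and 110 CPM, a log2 ratio of db/db control over db/m of -0.89 (-1.18 to -0.59). In proximal tubule cells it was at 22.5, 27.9 and 46.6 CPM, a log2 ratio of db/db control over db/m of -0.74 (-0.94 to -0.54). The Gpx1-led cluster was at 31.5, 46.7 and 139 CPM, and in the Snhg11 and Slc5a12 cluster, present in all 3 libraries, the levels were 21.3, 26.4 and 28.9. Thin limb cells with an Ackr3 UMI were 31.8%, 27.5% and 41.8% of their class (median depths 3476.5, 3174 and 5172 UMIs), beside 1.00%, 2.30% and 2.35% of lymphocytes.

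Ackr2, which scavenges inflammatory CC chemokines, was an endothelial gene at 28.3 CPM in the db/db fructose library, 16.9 in the db/db control library and 36.9 in the db/m library. Its log2 ratios were 0.74 (0.18 to 1.32) for fructose over control, and the db/db control library against db/m gave -1.12 (-1.76 to -0.49). The Plat and Plpp1 cluster, which also carries the glomerular endothelial gene Ehd3, was at 45.7, 30.5 and 51.5 CPM. Ackr4, the scavenger of CCR7 ligands and of CCL25, was at 0.964, 1.05 and 1.49 CPM in all kept cells. Ackr1, known from venules and red cells, had 3, 1 and 0 UMIs.

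Counts in the other classes were small. In proximal tubule cells 14 members were measured between diets, 6 higher (17.9% of all genes) and 1 lower (3.45%) in the db/db fructose library, or 5 (8.18%) and 2 (6.54%) with size factors, and 13 between genotypes, 2 higher (12.4%) and 4 lower (16.9%) in the db/db control library. Intercalated cells had 7 measured members, of which 5 were higher (35%) in the db/db control than in the db/m library and none lower (16.5%), or 4 higher (26.1%) and 1 lower (25.1%) with size factors. Markers of other tubule segments moved with this count: they were at 70.6%, 93.5% and 27.6% of the library level in intercalated cells of the db/db fructose, db/db control and db/m libraries. Distal convoluted tubule markers summed to 4890, 4780 and 440 CPM there, and the class's own markers to 6272, 5863 and 11474 CPM. Their part in the result was not tested. For diet 1 was higher (11.7%) and 3 were lower (5.8%) there. Thick ascending limb had 2 higher (13.8%) and 1 lower (2.74%) of 7 between diets, or none (6.59%) and 1 (5.48%) with size factors, and 1 higher (9.9%) and none lower (6.21%) of 7 between genotypes. Endothelium had 1 higher (11.5%) and 1 lower (3.53%) of 7 between diets, or none (5.66%) and 1 (6.45%) with size factors, and 2 higher (9.26%) and 2 lower (10.3%) of 8 between genotypes. Connecting tubule and principal cells had 2 higher (19.8%) and none lower (3.53%) of 6 between diets, and 2 higher (8.18%) and 2 lower (14.7%) of 6 between genotypes, or 2 (11.9%) and 1 (9.19%) with size factors. Distal convoluted tubule had 1 higher (13%) and 1 lower (3.19%) of 7 between diets, and 2 higher (7.69%) and 1 lower (11.5%) of 7 between genotypes. Thin limb had 1 higher (20.1%) and none lower (8.43%) of 3 between diets, or 1 (13.5%) and 1 (13%) with size factors, and none higher (6.59%) and 1 lower (24%) of 3 between genotypes. The pericyte, mesangial and smooth muscle class had 3 higher (26.7%) and none lower (7.04%) of 5 between diets, and no member measured between genotypes.

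Genes around the chemokine system were counted from lists of other pathway members. Of 20 genes of receptor signalling, such as the G protein subunit Gnai2, which relays chemokine receptor signals, 5 were higher and none lower in the db/db fructose library over all kept cells, near the 19.8% and 1.84% of all genes, with a median log2 ratio of 0.43 beside 0.33 for all genes. Between genotypes 2 of the 20 were higher (8.1% of all genes) and 1 lower (13.1%) in the db/db control library, with a median of -0.05. Rgs1, a brake on receptor signals in leukocytes, was at 20.7, 16.1 and 6.54 CPM in the db/db fructose, db/db control and db/m libraries. Of 10 genes of the NF-κB pathway over all kept cells, Relb and Birc3 were higher between diets, close to the 19.8% of all genes, with a median of 0.49. None passed 1.5-fold between genotypes over all kept cells, with a median of -0.13. In proximal tubule cells 4 of the 10 were higher between diets (Nfkbia, Nfkbie, Nfkbiz and Birc3, against 17.9% of all genes), and in lymphocytes 3 of 5 measured ones were (Nfkb1, Nfkbia and Tnfaip3, against 26.8%). In phagocytes none of the 10 was higher between diets (20.2%). Between genotypes the same 3 genes were lower in db/db control lymphocytes, of 4 measured (26.1%), with a median of -0.87. Phagocytes then had 1 higher (17.1%) and 1 lower (19.4%) of 10. Among the cytokines that induce chemokines, Il1b was at 36.3, 40.0 and 16.8 CPM and Tnf at 3.45, 4.02 and 2.54.

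Of the 6 listed proteases that cut chemokines, Dpp4, Mmp9 and Mmp14 were higher between diets over all kept cells, against 19.8% of all genes. The median of the 6 was 0.59, beside 0.33 for all genes. Between genotypes Dpp4 was lower over all kept cells, against 13.1% of all genes. Dissociation and immediate-early genes, which digestion at 37 °C is known to induce, moved beside the ligands. Of 13 such genes, 8 were higher (19.8% of all genes) and none lower (1.84%) in the db/db fructose library. Their median was 0.62, beside 0.33 for all genes. In the db/db control against the db/m library 7 were lower (13.1%) and none higher (8.1%), with a median of -0.62 beside -0.09. In proximal tubule cells 8 were higher between diets (17.9%), with a median of 0.96 beside 0.28. In phagocytes none of the 13 was higher (20.2%) and 1 was lower (6.57%) between diets. Their part in the chemokine values was not tested. Family genes outside the symbol rule included the platelet chemokine Pf4, at 65.9, 23.3 and 32.7 CPM in phagocytes of the db/db fructose, db/db control and db/m libraries, and Mif, at 358, 342 and 355 CPM in all kept cells.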

How the data were processed

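The 3 droplet libraries (10x Genomics), 1 per group, were analysed. The authors deposited raw UMI counts per gene and cell barcode, made with Cell Ranger 6.0.0 on mm10 per the submitters' processing notes. The steps before these counts are otherwise not given in the sources used here. Groups were taken from the sample labels.

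All barcodes of a library were scored for doublets with Scrublet in scanpy 1.11.5. The highest scores were marked at 0.8% per 1000 barcodes, which took 16.3%, 21.2% and 10.8% of all barcodes of the db/db fructose, db/db control and db/m libraries. Barcodes under 200 genes or above 50% mitochondrial UMIs were dropped, which left 19321, 21218 and 11256. Without the marked ones 16049, 16227 and 9940 were kept. Cells were clustered with the Leiden method at resolution 1 with the members kept out of the variable genes, and clusters were named from marker lists without members. The scoring rule for names was revised after the clusters were seen. Barcode sequences shared with another library numbered 1146, 1276 and 875 among all barcodes.

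Counts were summed per class and library and divided by the class's total to give CPM (scaled to 1000000). Ratios between 2 libraries carry 95% intervals from the conditional binomial, levels exact Poisson intervals and shares of cells Clopper-Pearson intervals, all of which cover counting error only. A count of 0 was set to a floor of 3. A member was measured with 20 UMIs in 2 libraries together, and was past the fold at 1.5-fold in a class with at least 50 cells in each library. The scripts were tested on simulated data.

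Members with 50 UMIs are named with values, and those with fewer with their counts; 1 member is counted in the totals but is otherwise not reported here. The members, the gene lists and the promoter motif were chosen with earlier results of these data known. The alternatives were another mitochondrial limit, barcodes shared between libraries left out, no doublet removal, finer clustering, free RNA subtracted, size factors, other minimum UMIs and 2-fold; leaving out the highest cell and leaving out mitochondrial genes were chosen after seeing the data.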

Additional observations from a re-analysis of the deposited data

Results flagged for a closer look

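For 5 members there were log2 ratios of opposite sign in 2 cell classes under the same comparison, each with an interval that leaves out 0, and the difference between classes was not tested. For fructose over control in db/db mice, Cxcl1 was at 0.84 in proximal tubule and -1.28 in mononuclear phagocytes. Ccl2 was at 1.60 in phagocytes and -1.87 in proximal tubule, where 24 of 50 UMIs of the db/db control library came from 1 cell. Cxcl10 was at 1.30 in connecting tubule and principal cells and -1.99 in phagocytes, where 23 of 40 UMIs of the db/db control library came from 1 cell.

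For db/db control over db/m, Cxcl10 was at 4.03 in distal convoluted tubule, from 46 UMIs against 1, and at -3.24 in endothelium, where 1 db/m cell held 53 of 56 UMIs. Ackr3 was at 2.62 in intercalated cells, from 43 UMIs against 2, where markers of other tubule segments stood at 93.5% of the library level in db/db control and 27.6% in db/m, and at -0.89 in connecting tubule and principal cells. Ccl4 was at 0.95 in lymphocytes, where 38 of 63 UMIs of the db/db control library came from 1 cell, and at -0.63 in phagocytes.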

How the results depend on the processing

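No paired analysis was possible because each group has 1 library. Over all kept cells, the 2 members lower under fructose became 1 without doublet removal, at 2-fold or without the highest cell, 0 at a minimum of 50 UMIs and 4 with no minimum; the 17 higher became 11 at a minimum of 50 UMIs and 11 at 2-fold. The 10 lower in db/db control than db/m became 6 with size factors, 6 without mitochondrial genes, 17 with no minimum and 5 at 2-fold, and the 11 higher became 7 at 2-fold. Summed over classes, the 29 higher under fructose became 19 with size factors, 18 at a minimum of 50 UMIs, 108 with no minimum and 18 at 2-fold, and the 11 lower became 7 with finer clustering, 5 at 50 UMIs, 79 with no minimum and 7 at 2-fold. For db/db control over db/m the 18 higher became 8 at 50 UMIs and 55 with no minimum, and the 17 lower became 115 with no minimum and 10 at 2-fold. Finer clustering and free RNA do not touch sums over all kept cells and were not run for them.

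Of the ratios past 1.5-fold, these turned sign for db/db control over db/m: Cxcl10 in endothelium was at 2.60 with finer clustering and at 0.69 without the highest cell, and Cxcl10 in intercalated cells at -0.0079 with finer clustering. With free RNA subtracted, Cxcl10 in connecting tubule and principal cells was at -0.20 and Cx3cl1 in intercalated cells at -0.11, and Cxcl13 in proximal tubule at -0.73 for fructose over control. The causes were not tested. Of 226 ratios of members in classes, 225 stayed within their interval without shared barcodes, 219 without doublet removal, 214 at 30% mitochondrial UMIs and 206 with size factors, and of 145 with free RNA subtracted 113 did. Depth limits the members with under 50 UMIs and the classes with under 50 cells, and with 1 library per group no spread between mice is known.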
